A study of Danio rerio with 9 samples.

Results

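The genes described here build and steer motile cilia and keep the zebrafish body axis straight. They were chosen by name, as the rows of the count table whose symbol matched foxj1a, foxj1b, rfx2, ccdc39, ccdc40, dnaaf1, sspo, urp1, urp2 or pkd2l1. All 10 names matched 1 gene ID each among 32520 in the table. For foxj1a the match was to FOXJ1 (ENSDARG00000101919) after dropping the final letter, while foxj1b has an ID of its own (ENSDARG00000088290). Polyadenylated RNA was sequenced from whole embryos at 30 hours post fertilisation (hpf) in 3 groups of 3 pools, each pool holding 30 embryos. Homozygous embryos (MZnpc2m/m) and heterozygous embryos (Mnpc2+/m) were siblings told apart by their phenotype. By zebrafish convention, M and MZ mark mutants that lack the maternal product and both the maternal and the zygotic product. Wild-type embryos (npc2+/+) came from separate crosses of wild-type adults, which were siblings of the parents of the mutants. Mother, clutch and genotype therefore cannot be told apart in comparisons with wild type, and in comparisons of the siblings the phenotype used for sorting goes with the genotype. Npc2 is a lysosomal protein that carries cholesterol.

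Motile cilia beat by means of dynein arms on an axoneme of microtubule doublets. In vertebrates Foxj1 and Rfx transcription factors switch on the genes of this machinery, the Ccdc39 and Ccdc40 proteins together form a ruler that spaces its parts along the doublet, and Dnaaf1 helps to assemble dynein arms in the cytoplasm before they enter the cilium. In the zebrafish central canal, beating cilia and the secreted glycoprotein SCO-spondin, encoded by sspo, are needed for the Reissner fibre, a thread in the cerebrospinal fluid. Cerebrospinal fluid-contacting neurons carry the Pkd2l1 channel and release the urotensin-related peptides Urp1 and Urp2, which act in straightening the axis.

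The genotype labels were checked on NPC2 (ENSDARG00000090912), which was at 32.6 to 44.3 CPM in homozygous, 142 to 146 CPM in heterozygous and 256 to 278 CPM in wild-type libraries. For a second NPC2 ID (ENSDARG00000096979), homozygous libraries were at 1.08 to 1.36 CPM and wild-type libraries at 1.75 to 2.28 CPM. Its heterozygous libraries, at 0.869 to 2.01 CPM, overlapped with both. CPM are counts scaled to library size by the trimmed mean of M values. Library totals were 38564405 to 69360234 counts. A total of 20375 genes entered edgeR's quasi-likelihood test, fitted over all 9 libraries, and a gene was called at a Benjamini-Hochberg adjusted p under 0.05 over all of them. The p-values set the difference between genotypes against the spread of these pools. The labels do not name the clutches of the pools, so this spread may leave out variation between clutches. Values after ± are standard deviations for CPM and approximate standard errors for log2 fold changes, with n = 3 pools per genotype. Exon lengths were not used here, so CPM compare the genotypes for 1 gene and not the genes with each other.

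Of the 10 genes, 9 passed the filter on low counts and urp1 did not. Against wild type, 4 of the 9 rose in homozygous embryos (foxj1a, ccdc39, urp2 and sspo), 3 fell (foxj1b, rfx2 and ccdc40) and 2 did not pass the test (dnaaf1 and pkd2l1). Over all genes tested, 44.5% were called in that comparison, 23.5% higher and 21.1% lower, so that 7 calls among 9 genes stand beside a high background. In heterozygous embryos rfx2 and ccdc40 fell against wild type and the other 7 did not pass, where the background was 29.8% (15.5% higher and 14.4% lower). Homozygous against heterozygous siblings, 4 rose (foxj1a, dnaaf1, pkd2l1 and sspo), 2 fell (foxj1b and rfx2) and 3 did not pass, with a background of 39.8% (20.4% higher and 19.4% lower). Libraries of homozygous and wild-type embryos did not overlap for 8 of the 9 genes (53.9% of all genes), those of homozygous and heterozygous siblings for 8 (51.2%), and those of heterozygous and wild-type embryos for 4 (42.7%). The median log2 change of the 9 genes was 0.27 for homozygous against wild type (0.02 for all genes), -0.07 for heterozygous against wild type (0.00 for all genes) and 0.26 between the siblings (0.01 for all genes). Both comparisons with wild type use the same 3 wild-type libraries.

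**Figure D1:**
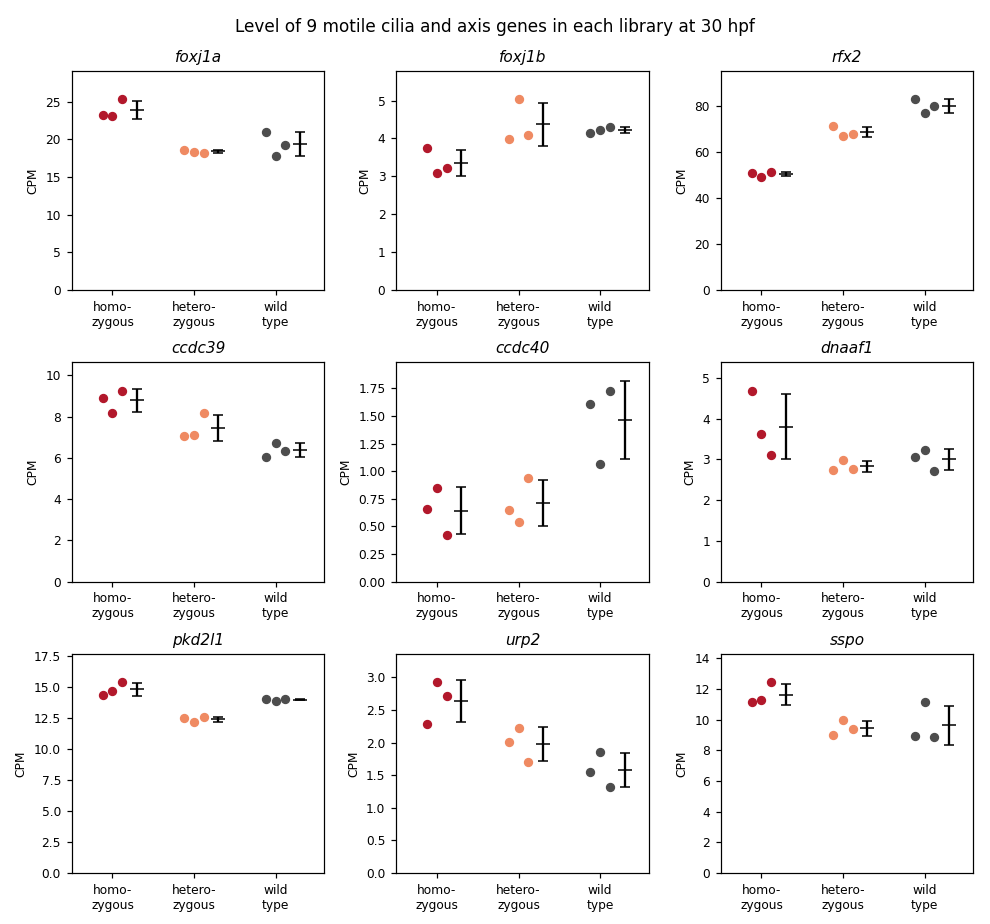
Level in CPM (scaled counts, vertical axes from 0) of the 9 genes that passed the filter, with 1 point per library and bars for the mean ± SD of 3 pools per genotype. rfx2 was lowest in homozygous libraries (49.4 to 51.3 CPM) and highest in wild-type libraries (77.1 to 83.0 CPM), while the means of urp2 and ccdc39 had the opposite order.

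The transcription factor genes did not move together. The forkhead gene foxj1a, a main switch of motile cilia genes, was at 23.2, 23.2 and 25.3 CPM in homozygous, 18.6, 18.4 and 18.2 CPM in heterozygous and 21.03, 17.8 and 19.3 CPM in wild-type libraries. All 3 homozygous libraries lay above the other 6, and heterozygous and wild-type libraries overlapped. It rose 1.24-fold in homozygous against wild-type embryos (log2 0.31 ± 0.07, edgeR adjusted p = 0.00192) and 1.30-fold against heterozygous siblings (log2 0.38 ± 0.07, adjusted p = 3.61e-04). Heterozygous against wild type, the change was -0.07 ± 0.07 (adjusted p = 0.501).

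Its paralogue foxj1b went the other way. It was at 3.74, 3.08 and 3.22 CPM in homozygous, 3.99, 5.03 and 4.09 CPM in heterozygous and 4.14, 4.23 and 4.30 CPM in wild-type libraries. Homozygous libraries lay below all others, and heterozygous and wild-type libraries overlapped. It fell by 0.33 ± 0.13 on the log2 scale against wild type (adjusted p = 0.0469) and by 0.38 ± 0.13 against heterozygous siblings (adjusted p = 0.0262). The call against wild type was lost with DESeq2, limma-voom, the replicate block or no low-count filter, and when homozygous replicate 2 or 3, heterozygous replicate 1 or any 1 wild-type library was left out (adjusted p = 0.0505 to 0.156). The call against heterozygous siblings was lost without homozygous replicate 2 or 3 or heterozygous replicate 2 (adjusted p = 0.0758 to 0.152). Heterozygous against wild type, the log2 change was 0.05 ± 0.13 (adjusted p = 0.818).

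The log2 ratio of foxj1a to foxj1b counts, which does not depend on library scaling, was 2.63 to 2.97 in homozygous, 1.87 to 2.23 in heterozygous and 2.08 to 2.34 in wild-type libraries. The homozygous libraries lay above the rest. Their mean was 0.65 above wild type and 0.76 above heterozygous siblings. The exact two-sided permutation p was 0.1 in both cases, the smallest that 3 against 3 libraries can give, and 0.15 after Benjamini-Hochberg adjustment over the 9 tests of 3 such ratios. All 3 ratios, here and below, were chosen after the values were seen, so their p-values are a description and no independent support.

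The third transcription factor gene, rfx2, encodes an Rfx factor that acts with Foxj1 on cilia genes, and of the 9 genes it had the lowest adjusted p in each comparison. It was at 50.7, 49.4 and 51.3 CPM in homozygous, 71.5, 67.2 and 67.8 CPM in heterozygous and 83.0, 77.1 and 80.2 CPM in wild-type libraries. No library of one genotype overlapped with another genotype, and heterozygous embryos lay in the middle. It fell by 0.67 ± 0.05 on the log2 scale in homozygous against wild-type embryos (adjusted p = 9.09e-09), by 0.22 ± 0.05 in heterozygous against wild-type embryos (adjusted p = 0.00282) and by 0.45 ± 0.05 in homozygous against heterozygous siblings (adjusted p = 1.50e-06). In the RefSeq table, on another assembly (GRCz12tu), the span of rfx2 overlaps that of fcho1, an endocytosis gene, and the strand setting of the counting is not given in the sources used here. For fcho1, levels were 10.6 to 11.9 CPM in homozygous, 12.6 to 13.1 CPM in heterozygous and 13.2 to 14.0 CPM in wild-type embryos. Its part in the rfx2 counts was not tested.

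The pair of ruler genes moved in opposite directions against wild type. For ccdc39, levels were 8.92, 8.20 and 9.25 CPM in homozygous, 7.07, 7.09 and 8.18 CPM in heterozygous and 6.06, 6.73 and 6.32 CPM in wild-type libraries. All homozygous libraries lay above all heterozygous ones, and these above all wild-type ones. The rise was 1.38-fold in homozygous against wild-type embryos (log2 0.46 ± 0.10, adjusted p = 8.41e-04). Neither heterozygous against wild-type embryos (log2 0.22 ± 0.10, adjusted p = 0.0951) nor homozygous against heterozygous siblings (log2 0.24 ± 0.09, adjusted p = 0.0553) passed the test. Between the siblings the rise passed with limma-voom (adjusted p = 0.0457), and when homozygous replicate 2 (0.0478) or heterozygous replicate 3 (0.0238) was left out.

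For ccdc40, levels were 0.656, 0.848 and 0.421 CPM in homozygous, 0.649, 0.540 and 0.941 CPM in heterozygous and 1.61, 1.06 and 1.73 CPM in wild-type libraries. These rest on few counts, 46, 54 and 18 in homozygous, 42, 32 and 52 in heterozygous and 62, 68 and 94 in wild-type libraries. All of them are even, as were 96.3% to 97.5% of counts from 1 to 19, and the cause was not tested. Both mutant genotypes lay below all wild-type libraries and overlapped with each other. ccdc40 fell by 1.16 ± 0.30 on the log2 scale in homozygous (adjusted p = 0.00458) and by 1.04 ± 0.30 in heterozygous embryos (adjusted p = 0.0141) against wild type. Between the siblings the change was -0.12 ± 0.31 (adjusted p = 0.791). Leaving out heterozygous replicate 1 or 2, or replicate 3 of wild type, ended the heterozygous call (adjusted p = 0.0504 to 0.0692).

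Within libraries, the log2 ratio of ccdc39 to ccdc40 counts was 3.27 to 4.46 in homozygous, 3.12 to 3.71 in heterozygous and 1.87 to 2.66 in wild-type embryos. All 6 mutant libraries lay above all 3 wild-type libraries. Homozygous embryos were 1.68 and heterozygous embryos 1.28 above wild type on this log2 scale (exact permutation p = 0.1 each, the smallest possible, and 0.15 adjusted). The siblings differed by 0.41, with overlapping libraries (exact permutation p = 0.4, and 0.5 adjusted).

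**Figure D2:**
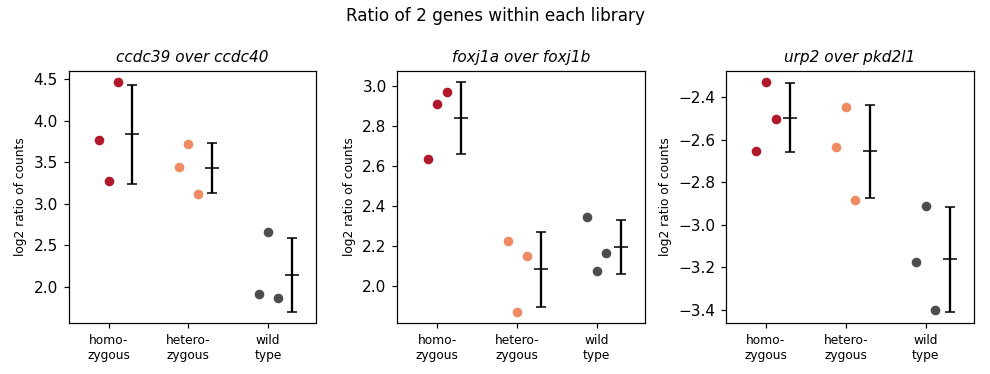
Log2 ratio of the counts of 2 genes within each library (vertical axes, not starting at 0), with 1 point per library and bars for the mean ± SD of 3 pools. The ratio of ccdc39 to ccdc40 was 3.12 to 4.46 in the 6 mutant libraries and 1.87 to 2.66 in wild type, while the ratio of foxj1a to foxj1b stood apart in homozygous libraries (2.63 to 2.97).

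The dynein assembly gene dnaaf1 was at 4.68, 3.61 and 3.11 CPM in homozygous, 2.75, 2.97 and 2.75 CPM in heterozygous and 3.06, 3.23 and 2.72 CPM in wild-type libraries. Homozygous replicate 1 was high, and homozygous and wild-type libraries overlapped. It rose by 0.44 ± 0.15 on the log2 scale against heterozygous siblings (adjusted p = 0.0316). Leaving out homozygous replicate 1, which took the change down to 0.26, or any 1 heterozygous library ended that call (adjusted p = 0.0505 to 0.236). Against wild type the change in homozygous embryos was 0.35 ± 0.15 (adjusted p = 0.0775), which passed without homozygous replicate 3 (log2 0.47, adjusted p = 0.0250). In heterozygous against wild-type embryos it was -0.09 ± 0.16 (adjusted p = 0.718). The span of dnaaf1 overlaps that of nrn1lb in the RefSeq table, which was at no more than 0.0314 CPM in any library. The part of nrn1lb in the dnaaf1 counts was not tested.

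Among the genes of the Reissner fibre and the urotensin peptides, sspo was at 11.2, 11.3 and 12.4 CPM in homozygous, 8.99, 9.96 and 9.37 CPM in heterozygous and 8.91, 11.1 and 8.85 CPM in wild-type libraries. Homozygous libraries lay above the rest, but only just above wild-type replicate 2. It rose 1.203-fold against wild type (log2 0.27 ± 0.10, adjusted p = 0.0345) and 1.23-fold against heterozygous siblings (log2 0.30 ± 0.10, adjusted p = 0.0205). The call against wild type was lost with DESeq2, in a fit of these 6 libraries alone, and on leaving out any 1 homozygous library, or replicate 1 or 3 of wild type (adjusted p = 0.0536 to 0.132). The call against siblings was lost without homozygous replicate 3 or heterozygous replicate 1 (adjusted p = 0.0659 to 0.0792). Heterozygous against wild type, the change was -0.03 ± 0.10 (adjusted p = 0.839). The span of sspo overlaps that of aoc1 in the RefSeq table, and AOC1 was at 0 in all 9 libraries. Its part in the sspo counts was not tested.

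The peptide gene urp2 was at 2.28, 2.92 and 2.71 CPM in homozygous, 2.01, 2.23 and 1.70 CPM in heterozygous and 1.55, 1.85 and 1.32 CPM in wild-type libraries. These values rest on 116 to 186 counts in homozygous, 94 to 132 in heterozygous and 60 to 118 in wild-type libraries. Homozygous libraries lay above all others, and heterozygous and wild-type libraries overlapped. urp2 rose 1.67-fold in homozygous against wild-type embryos (log2 0.74 ± 0.18, adjusted p = 0.00303), the largest rise among the 9 genes. Homozygous against heterozygous siblings (log2 0.41 ± 0.18, adjusted p = 0.0759) and heterozygous against wild type (log2 0.33 ± 0.18, adjusted p = 0.198), urp2 did not pass.

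The other peptide gene, urp1 (ENSDARG00000093493), was listed at 0 counts in all 9 libraries. At these depths 3 counts equal 0.0428 to 0.0777 CPM. However, 6467 IDs of the table were at 0 in every library, among them PFDN5 and ANAPC11, which encode parts of complexes that cells in general use (chosen after their values were seen). The cilia genes KIF3A, BBS4 and RSPH1 were at 0 as well, as was CLIC2, whose span overlaps urp1 in the RefSeq table. No level or change is therefore given for urp1.

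The channel gene pkd2l1 was at 14.4, 14.7 and 15.4 CPM in homozygous, 12.5, 12.2 and 12.6 CPM in heterozygous and 14.0, 13.9 and 14.0 CPM in wild-type libraries. The 3 genotypes did not overlap, with heterozygous embryos lowest and replicates close together. It rose 1.19-fold in homozygous against heterozygous siblings (log2 0.26 ± 0.07, adjusted p = 0.00737). Against wild type neither homozygous (log2 0.08 ± 0.07, adjusted p = 0.365) nor heterozygous embryos (log2 -0.17 ± 0.07, adjusted p = 0.0749) passed the test. Both urp2 and pkd2l1 were listed as markers of cerebrospinal fluid-contacting neurons, and whether the same cells make both was not tested. The log2 ratio of urp2 to pkd2l1 counts was -2.66 to -2.33 in homozygous, -2.88 to -2.45 in heterozygous and -3.40 to -2.91 in wild-type libraries. Both mutant genotypes lay above wild type, by 0.67 in homozygous and 0.51 in heterozygous embryos (exact permutation p = 0.1 each, the smallest possible, and 0.15 adjusted), and the siblings overlapped. In the RefSeq table pkd2l1 overlaps atoh7, a retinal transcription factor gene, which was at 5.79 to 6.69 CPM in homozygous, 3.88 to 6.46 CPM in heterozygous and 6.64 to 8.96 CPM in wild-type libraries. Its part in the pkd2l1 counts was not tested.

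**Figure D3:**
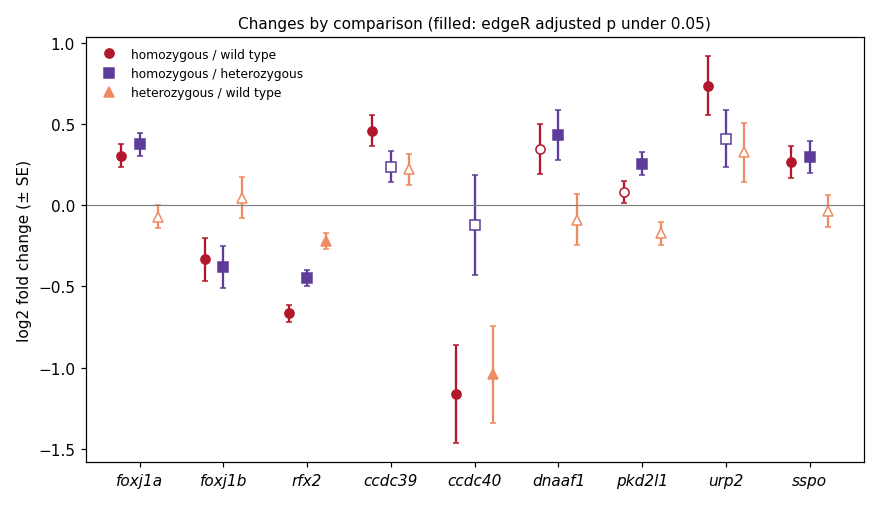
Log2 fold change ± SE (vertical axis) of the 9 genes in homozygous against wild-type, homozygous against heterozygous and heterozygous against wild-type embryos, with filled symbols for an edgeR adjusted p under 0.05. For homozygous against wild type values ran from -1.16 (ccdc40) to 0.74 (urp2), and for heterozygous against wild type rfx2 and ccdc40 were called, both lower.

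The rest of each pathway was described from lists of related genes, leaving out the 10 genes above. These lists were chosen with earlier results of these data known, so they describe the pathways and test no enrichment. Their counts stand beside the shares of all genes tested, which were 23.5% higher and 21.1% lower in homozygous against wild-type, 15.5% higher and 14.4% lower in heterozygous against wild-type, and 20.4% higher and 19.4% lower in homozygous against heterozygous embryos. In pooled whole embryos, fewer cells of a type and less RNA per cell cannot be told apart. Among 14 other cilia transcription factor IDs, 1 rose, 4 fell and 9 did not pass in homozygous against wild-type embryos (median log2 change -0.12). In heterozygous against wild-type embryos 1 rose and 4 fell (-0.02), and between the siblings 3 rose and 3 fell (-0.09). RFX4, an Rfx factor of the developing brain, was at 12.9, 11.5 and 15.8 CPM in homozygous, 32.0, 29.9 and 26.4 CPM in heterozygous and 34.5, 28.1 and 23.6 CPM in wild-type libraries, with fitted levels in homozygous embryos 0.467 times those of wild type (adjusted p = 8.14e-04). RFX7 (ENSDARG00000077237) fell in homozygous (-0.42 ± 0.07) and heterozygous embryos (-0.48 ± 0.07) against wild type. One RFX1 ID (ENSDARG00000005883) rose by 0.36 ± 0.07 in homozygous against wild-type embryos. The other (ENSDARG00000075904) fell by 0.50 ± 0.06 in heterozygous against wild-type embryos and rose by 0.38 ± 0.06 in homozygous against heterozygous siblings. The genes gmnc and mcidas, which start multiciliated cell formation, did not pass in any comparison (named after their values were seen). Homozygous against wild type, their log2 changes were 0.44 (adjusted p = 0.198) and -0.06 (adjusted p = 0.930).

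Most genes of the dynein arms did not pass the test. Of 21 IDs tested, 1 rose, 6 fell and 14 did not pass in homozygous against wild-type embryos (median log2 change -0.24), and 1 rose, 4 fell and 16 did not pass in heterozygous against wild-type embryos (-0.16). Lower calls made up 28.6% and 19.05% of the list, beside 21.1% and 14.4% of all genes. The outer arm heavy chain gene dnah5l was at 11.5, 12.5 and 11.3 CPM in homozygous, 11.4, 12.6 and 12.3 CPM in heterozygous and 17.4, 17.8 and 18.04 CPM in wild-type libraries. Mutant libraries of both genotypes lay well below wild type and overlapped with each other. The falls were 0.59 ± 0.08 in homozygous (adjusted p = 6.21e-06) and 0.55 ± 0.08 in heterozygous embryos (adjusted p = 3.67e-05) on the log2 scale. DNAH5 and DNAH11, also heavy chain genes, changed by -0.54 ± 0.09 and -0.52 ± 0.10 in homozygous and by -0.45 ± 0.09 and -0.44 ± 0.10 in heterozygous embryos against wild type. Between the siblings 1 of the 21 was called, DNAI3, an intermediate chain gene, which rose by 0.67 ± 0.15 in homozygous embryos and had fallen by 0.50 ± 0.15 in heterozygous against wild-type embryos.

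Of 19 other assembly and docking genes, 3 rose, 3 fell and 13 did not pass in homozygous against wild-type embryos (median -0.10). Heterozygous against wild type, 3 rose, 0 fell and 16 did not pass (0.05), and between the siblings 0 rose, 2 fell and 17 did not pass (-0.12). The dynein assembly gene spag1a was at 16.9, 17.5 and 16.4 CPM in homozygous, 15.0, 15.4 and 15.9 CPM in heterozygous and 10.05, 10.05 and 11.1 CPM in wild-type libraries, rising by 0.70 ± 0.07 and 0.57 ± 0.07 in homozygous and heterozygous embryos against wild type. CFAP300, at a low mean of 1.03 CPM, rose by 1.28 ± 0.29 and 1.40 ± 0.29 in these comparisons. DNAAF11 rose by 0.45 ± 0.14 in heterozygous against wild-type embryos. ODAD4, of the dynein docking complex, fell by 0.87 ± 0.15 and DAW1, which acts in dynein transport to the cilium, by 0.48 ± 0.10 in homozygous against wild-type embryos. DAW1 also fell against heterozygous siblings (-0.54 ± 0.10).

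Other axoneme genes included 73 IDs, of which 5 rose, 17 fell and 51 did not pass in homozygous against wild-type embryos (median -0.18). In heterozygous against wild-type embryos 2 rose, 9 fell and 62 did not pass (-0.09), and between the siblings 5 rose, 4 fell and 64 did not pass (-0.05). The tubulin-binding gene TPPP3 was at 3.74, 4.40 and 4.91 CPM in homozygous, 6.70, 6.28 and 7.02 CPM in heterozygous and 10.4, 10.2 and 9.22 CPM in wild-type libraries, with no overlap between genotypes. It fell by 1.195 ± 0.11 in homozygous and by 0.57 ± 0.10 in heterozygous embryos against wild type. The radial spoke gene RSPH9 fell by 0.76 ± 0.16 and 0.71 ± 0.16 in these comparisons. The central pair gene spef2 rose by 0.61 ± 0.11 in homozygous embryos against heterozygous siblings. In that comparison SPATA18, TPPP3 and RSPH4A changed by -0.71 ± 0.10, -0.62 ± 0.11 and -0.57 ± 0.14. SPATA18 also changed by -0.75 ± 0.10 in homozygous against wild-type embryos. It was listed by name, and whether its product is part of the axoneme was not tested. The tubulin gene tubb4b, which is not limited to cilia, rose in homozygous (0.23 ± 0.04) and heterozygous embryos (0.29 ± 0.04) against wild type.

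Taking the dynein, assembly and axoneme lists as 1 set of 116 IDs, with ccdc39, ccdc40 and dnaaf1 included, 31.9% were called in homozygous against wild-type, 17.2% in heterozygous against wild-type and 11.2% in homozygous against heterozygous embryos, where the backgrounds were 44.5%, 29.8% and 39.8%. The median level of the set was 2.62 CPM, against 8.33 CPM for all genes tested, and the part of this in the smaller shares was not tested. The call count between the siblings, 13, was 8 without heterozygous replicate 1 and 7 without heterozygous replicate 2. The count of 20 in heterozygous against wild-type embryos was 13 without heterozygous replicate 1.

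**Figure D4:**
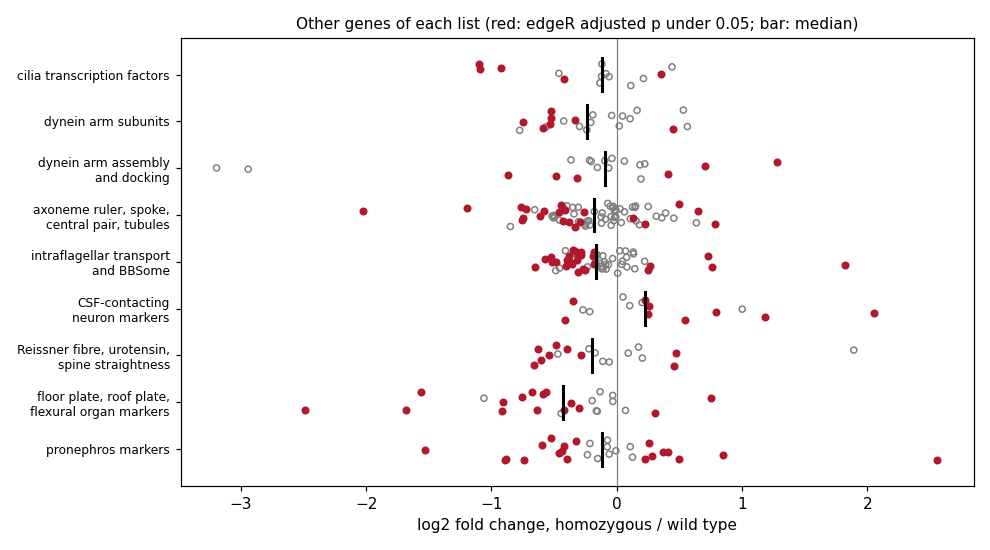
Log2 fold change in homozygous against wild-type embryos (horizontal axis) of the tested genes of each list other than the 10 named genes, with 1 point per gene ID, red where the edgeR adjusted p was under 0.05, and a black bar for the list median. The medians were below 0 for every list but that of cerebrospinal fluid-contacting neuron markers (0.23), and lowest for floor and roof plate markers (-0.43).

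Intraflagellar transport and BBSome genes serve motile and primary cilia alike. Of 57 tested, 5 rose, 22 fell and 30 did not pass in homozygous against wild-type embryos (median -0.17), and 3 rose, 18 fell and 36 did not pass in heterozygous against wild-type embryos (-0.10). Lower calls made up 38.6% and 31.6% of the list, beside 21.1% and 14.4% of all genes. Between the siblings 9 rose, 11 fell and 37 did not pass (-0.11). IFT172, a core transport subunit, was at 37.6, 37.1 and 39.5 CPM in homozygous, 42.7, 44.2 and 46.4 CPM in heterozygous and 53.3, 53.2 and 58.0 CPM in wild-type libraries, with no overlap between genotypes. Both KIF3C IDs, which encode a kinesin motor subunit found mainly in neurons, rose in homozygous against wild-type embryos (0.76 ± 0.10 and 0.73 ± 0.10).

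Markers of cerebrospinal fluid-contacting neurons were listed without urp1, urp2 and pkd2l1. Of 15 tested, 7 rose, 2 fell and 6 did not pass against wild type (median 0.23), and 9 rose, 1 fell and 5 did not pass against heterozygous siblings (0.32). In heterozygous against wild-type embryos 2 rose, 5 fell and 8 did not pass (-0.14). Higher calls in homozygous embryos made up 46.7% of the list against wild type, beside 23.5% of all genes, and 60.0% against heterozygous siblings, beside 20.4% of all genes. Many of these genes are also active in other neurons, and some are not limited to neurons. The GATA3 ID is also on the list of pronephros markers below and is counted in both. The summed level of the 17 IDs was 249 to 267 CPM in homozygous, 203 to 220.1 CPM in heterozygous and 226 to 242 CPM in wild-type libraries. The means of pkd2l1 had this order, as did those of foxj1a, sspo and dnaaf1, while the mean of urp2 was lowest in wild type. TAL2, a transcription factor gene of these cells, was at 11.4, 11.03 and 11.5 CPM in homozygous, 6.89, 7.43 and 7.09 CPM in heterozygous and 9.996, 9.46 and 9.18 CPM in wild-type libraries, and rose by 0.67 ± 0.08 against heterozygous siblings (adjusted p = 4.86e-06). GATA3 rose by 0.43 ± 0.06 in the same comparison. SOX1 (ENSDARG00000008131), a neural transcription factor gene, was the 1 marker that fell there, by 0.39 ± 0.06 (adjusted p = 6.46e-05), and it fell by 0.35 ± 0.06 in homozygous against wild-type embryos. The channel-related genes pkd1l2a and pkd1l2b (ENSDARG00000101214) moved apart, by -0.41 ± 0.07 and 2.05 ± 0.26 in homozygous against wild-type embryos. For pkd1l2b, levels were 2.03 to 2.76 CPM in homozygous, 2.74 to 3.34 CPM in heterozygous and 0.259 to 0.735 CPM in wild-type libraries. A second pkd1l2b ID and 1 of 2 SOX1 IDs were at 0. The part of these markers in the urp2 and pkd2l1 values was not tested.

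Markers of the floor plate and flexural organ, where sspo is made, and of the roof plate were a further list. Of 24 tested, 2 rose, 13 fell and 9 did not pass in homozygous against wild-type embryos (median -0.43), and 3 rose, 12 fell and 9 did not pass against heterozygous siblings (-0.27). Between heterozygous and wild-type embryos 2 rose, 7 fell and 15 did not pass (-0.12). Lower calls in homozygous embryos made up 54.2% of the list against wild type, beside 21.1% of all genes, and 50.0% against heterozygous siblings, beside 19.4% of all genes. Their summed level was 382 to 410 CPM in homozygous, 495 to 500.1 CPM in heterozygous and 557 to 579.9 CPM in wild-type libraries. This sum includes roof plate markers and so does not stand for the cells that make sspo. The level of sspo was highest in homozygous libraries, and the part of these tissues in it was not tested. The homeobox gene nkx2.9 was at 2.197, 2.04 and 3.13 CPM in homozygous, 11.4, 10.5 and 10.4 CPM in heterozygous and 15.0, 13.4 and 12.5 CPM in wild-type libraries, a fall of 2.49 ± 0.13 on the log2 scale in homozygous against wild-type embryos. The guidance gene NTN1 (ENSDARG00000022531) fell by 0.91 ± 0.07 and the homeobox gene msx3 by 1.57 ± 0.06 in that comparison.

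Other genes of spine straightness and urotensin signalling numbered 18, of which 2 rose, 7 fell and 9 did not pass in homozygous against wild-type embryos (median -0.20). In heterozygous against wild-type embryos 3 rose and 3 fell (-0.05), and between the siblings 1 rose and 5 fell (-0.05). Homozygous against wild type, SCUBE2, which helps to release Hedgehog, fell by 0.54 ± 0.05 and ADRB3, an adrenergic receptor gene, by 0.61 ± 0.09. In that comparison pkd1b rose by 0.47 ± 0.07. Pronephros markers, of a tissue that carries multiciliated cells, went both ways, with 8 of 28 rising, 11 falling and 9 not passing in homozygous against wild-type embryos (median -0.11). Between heterozygous and wild-type embryos 3 rose and 7 fell (-0.14), and between the siblings 6 rose and 11 fell (-0.10). The regulator gene lhx1a rose by 0.84 ± 0.06 and the uptake receptor gene CUBN fell by 0.89 ± 0.07 in homozygous against wild-type embryos. Their summed level was 1214 to 1229 CPM in homozygous, 1201 to 1236 CPM in heterozygous and 1212 to 1288 CPM in wild-type libraries, so the genotypes overlapped.

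For each of the 9 genes, the gene with the most similar profile over the 9 libraries was looked up among 11614 genes with a symbol and a mean of at least 5 CPM. These correlations (Pearson's r of log2 CPM) are over libraries of the same 3 genotypes and are given as a description. ZIC2, a neural patterning factor gene, was nearest to rfx2 (r = 0.995), and was at 43.1 to 45.6 CPM in homozygous, 65.5 to 70.3 CPM in heterozygous and 81.7 to 88.3 CPM in wild-type libraries. VIM, an intermediate filament gene, was nearest to pkd2l1 (r = 0.981), with 254 to 270 CPM in homozygous, 173 to 187 CPM in heterozygous and 227 to 249 CPM in wild-type libraries. ASS1 was nearest to ccdc39 (r = 0.977), il11ra to foxj1a (r = 0.969), PHLDB1 to urp2 (r = 0.966), RNF2 to foxj1b (r = 0.956), HSPA4L to ccdc40 (r = 0.956), SSTR2 to sspo (r = 0.954) and TM9SF4 to dnaaf1 (r = 0.948). The 9 nearest genes were all different.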

How the data were processed

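Polyadenylated RNA of 9 pools was analysed. The deposited table holds raw whole-number counts for each gene. Per the submitters' processing notes, cutadapt 1.18, HISAT2 2.1.0 and featureCounts 1.6.3 were used with build GRCz11 (danRer11), while the sources used here do not give the annotation release, the strand setting or other counting options. Between 96.3% and 97.5% of counts from 1 to 19 were even. The cause was not tested, and halved counts were 1 alternative.

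Symbols came from a names table that covered 29201 of 32520 IDs. The 10 genes, the lists and the named-gene rule were chosen with earlier results of these data known. The rule named all 10 genes, up to 4 called genes per list and comparison by lowest adjusted p with a mean of at least 1 CPM, and the nearest profile of each gene. Of 366 list entries, 270 matched by symbol, 45 after dropping a final a or b, and 51 did not match.

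Counts were tested with edgeR 4.0.16 (R 4.3.3; TMM, default filter, robust quasi-likelihood F test, all 9 libraries, no block), which dropped 12145 IDs. Approximate standard errors are the size of the log2 fold change over the root of F. Log2 CPM used a prior count of 2. Chi-square statistics between replicates of a genotype, on halved counts, were 2.61 to 7.39 times their degrees of freedom, above sampling noise. Replicates 1 and 2 were the closest pair in each genotype (2.61 to 3.31), and pairs with replicate 3 gave 4.84 to 7.39. The cause was not tested. Each pool was counted as 1 sample. The procedure was also run on simulated counts in which few genes changed, unlike in these data, and no result here rests on that run. Alternatives were DESeq2 1.42.0, limma 3.58.1 (voom), other scaling, filters and sample sets, halved counts and leaving out each library.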

Additional observations from a re-analysis of the deposited data

How the results depend on the processing

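The calls of foxj1a (homozygous against both other genotypes), rfx2 (3 comparisons), urp2, ccdc39 and ccdc40 (homozygous against wild type) and pkd2l1 (homozygous against heterozygous) held in all 18 alternatives. For foxj1b and sspo in homozygous against wild-type embryos, 10 and 7 of the 18 lost the call. Leaving out 1 library gave 5 to 7 of the 9 genes called in homozygous and 1 to 2 in heterozygous embryos against wild type. Between the siblings 4 to 6 were called. For motile axoneme genes the ranges were 26 to 40, 13 to 21 and 7 to 14 in the same order. The cause was not tested. Direction turned only for differences that were not called. Leaving out 1 library gave log2 changes of -0.093 to 0.088 for sspo (0.0026 without heterozygous replicate 1, 0.088 without wild-type replicate 2) and -0.066 to 0.11 for foxj1b (-0.066 without heterozygous replicate 2) in heterozygous against wild-type embryos. For ccdc40 between the siblings the range was -0.36 to 0.13 (0.092 without homozygous replicate 3, 0.13 without heterozygous replicate 3). Replicate numbers do not pair the pools by the labels, and the replicate block was an alternative. It gave 9073, 6133 and 8164 genes and 6, 2 and 6 of the described genes called (in homozygous and in heterozygous embryos against wild type, and between the siblings), where the fit without it gave 9076, 6079 and 8101 genes and 7, 2 and 6. Deviations of same-numbered libraries correlated at -0.02 to 0.08 over genes. Between the siblings all 3 homozygous libraries correlated best with their own number (r = 0.0565 to 0.0848), a hint from the data and not the design. Against wild type, 2 of 3 homozygous and 0 of 3 heterozygous libraries did so. ccdc40 rests on 18 to 94 and urp2 on 60 to 186 counts per library, all of them even. A gene listed at 0 cannot be read as absent.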
